A study of Mus musculus with 6 samples.

Results

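Promoter occupancy by CDK6 was described for 39 genes of pyruvate, tricarboxylic acid (TCA) cycle and glutamine metabolism, out of 22028 protein-coding genes in the annotation. The genes were taken from a list of names by their place in these pathways. The rule uses no measured value, but the list was drawn up with earlier results of these data known. They fall into 13 genes of pyruvate entry, 12 genes of the cycle itself and 14 genes of glutamine use, cytosolic shuttles and citrate export. Binding was measured by ChIP-seq against the HA tag in lines of pre/pro B cells from the mouse that are Cdk6-/- and carry BCR-ABL(p185), grown out from C57BL/6 bone marrow transduced with the oncogene and later given HA-tagged CDK6 from a retroviral plasmid. The 2 groups are CDK6-WT, with the wildtype kinase (n = 2 libraries), and CDK6-K43M, with the kinase inactive mutant (n = 2 libraries). Neither group contains endogenous CDK6, both proteins are overexpressed, and both carry BCR-ABL. Setting the variants side by side addresses whether the kinase function of CDK6 is required at these promoters. The labels number the libraries as replicates without saying whether they are separate cultures, so differences between them may be technical. 2 input libraries are listed in the series and were not analysed here.

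Pyruvate made by glycolysis enters mitochondria through the mitochondrial pyruvate carrier and is turned into acetyl-CoA by the pyruvate dehydrogenase complex, which pyruvate dehydrogenase kinases switch off and phosphatases switch on. The TCA cycle oxidises the acetyl group and hands electrons to the respiratory chain. Glutamine refills the cycle after conversion to glutamate and 2-oxoglutarate, while malate, aspartate and citrate carry reducing power and carbon between mitochondria and cytosol. CDK6 has no DNA-binding domain of its own and reaches chromatin with other proteins.

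Promoters reached 2000 bp upstream and 200 bp downstream of each annotated transcript start. The strength of a peak is given as the percentile of its −log10 q within its own list, where 100 is the strongest peak of that library. The 4 lists held between 34729 and 39797 peaks and began at a −log10 q between 1.31 and 1.34, so a gene without a peak had no signal past that threshold and is not shown to be free of CDK6. The median peak rested on 15 to 23 reads at its summit. The libraries divide by replicate number more than by variant, and values within each replicate number are therefore given beside the pooled ones. Of 11 B-lineage marker genes 9 had a promoter region bound by both variants, against 41.3% of all protein-coding genes. All 11 were present in each replicate 2 list and 9 in each replicate 1 list, which lacked Rag1 and Dntt. Among 12 marker genes of other lineages 1 (Lyz2) had a region bound by both. A peak at a promoter is not a measure of expression.

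CDK6 was found at most of these promoters with either variant. A region with a peak in 3 or more of the 4 lists was called bound by both, and 32 of the 39 genes (82.1%) had such a region at a promoter. The share was 41.3% over all protein-coding genes and 70.0% over the 9004 genes with a CpG-rich promoter, a class that held 28 of the 39 genes (71.8%) against 41.0% of all genes. The part of CpG content in the high share was not tested. A promoter peak was present in all 4 lists for 28 genes (71.8%), against 33.2% of all protein-coding genes and 57.6% of those with a CpG-rich promoter. Both counts depended on weak peaks: at a minimum −log10 q of 10, 14 of the 39 genes (35.9%) were bound by both, against 17.1% of all protein-coding genes, and 5 (12.8%) had a peak in all 4 lists, against 8.41%. By list, 34 and 32 genes had a promoter peak in CDK6-WT replicates 1 and 2, and 34 and 30 in CDK6-K43M replicates 1 and 2. The same shares for all protein-coding genes were 47.0% and 40.1% with CDK6-WT and 48.5% and 39.4% with CDK6-K43M.

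**Figure D1:**
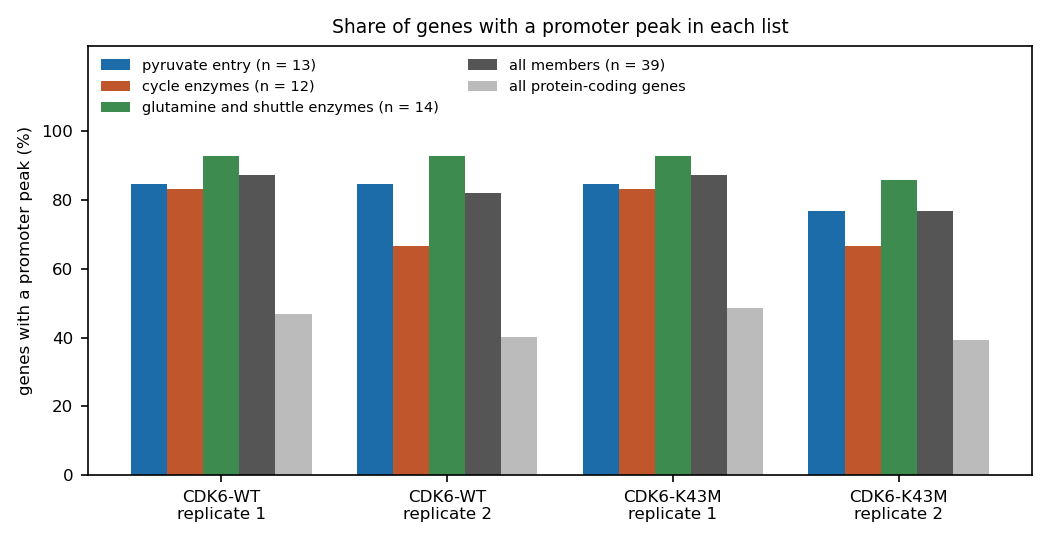
Share of genes with a promoter peak (%, y axis) in each of the 4 peak lists (x axis), for the 3 groups of genes, for all 39 genes and for all 22028 protein-coding genes. All 39 genes together stand above all protein-coding genes in every list, with 34, 32, 34 and 30 of 39.

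Presence did not divide by variant at any of the 39 genes. No gene had a promoter region unique to CDK6-WT (both CDK6-WT lists and neither CDK6-K43M list), where 0.222% of all protein-coding genes did, and no gene had one unique to CDK6-K43M, where 0.713% did. Against backgrounds this low the count of 0 does not set these genes apart. At a minimum −log10 q of 5 Pdha1 alone had a region unique to CDK6-K43M. Presence divided by replicate number at few genes. Both replicate 1 libraries but no replicate 2 library carried peaks at Idh3a and Gls2 (2 of 39, background 5.68%). Me1 had a peak in both replicate 2 lists only (1 of 39, background 1.28%). Beside these backgrounds the counts do not set the 39 genes apart either.

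The sequences under the summits show what kind of DNA carries these peaks. They were read from the GRCm38 (mm10) reference at the strongest peak of a region and are written 5′ to 3′ on the strand of the gene. Capitals mark letters that match 1 of 9 searched motifs on either strand. Bases annotated as untranslated exon were left out, except at Dld. Dlst and Pck2 are shown as genes at or near the top of their groups, the phosphatase gene Pdp1 for its NRF-1, SP1, NFY and CRE letters, Ogdh for a second CRE, and Pdha1 and Pdhb because their peaks differed between the variants in opposite directions. Ogdh, Pdha1 and Pdhb were chosen after their values were seen. For Dld only the NRF-1 letters with 10 bases to each side are given. This stretch lies inside the gene, past its 5′ start, and was printed although it falls in untranslated exon.
Dlst, chr12:85130574-85130774, plus strand: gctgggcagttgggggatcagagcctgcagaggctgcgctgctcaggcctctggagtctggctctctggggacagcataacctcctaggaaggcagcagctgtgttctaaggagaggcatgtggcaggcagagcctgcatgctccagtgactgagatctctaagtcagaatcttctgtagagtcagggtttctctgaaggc
Pck2, chr14:55540147-55540265, plus strand: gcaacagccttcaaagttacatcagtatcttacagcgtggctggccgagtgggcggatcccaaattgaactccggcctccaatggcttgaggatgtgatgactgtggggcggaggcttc
Pdp1, chr4:11966475-11966675, minus strand: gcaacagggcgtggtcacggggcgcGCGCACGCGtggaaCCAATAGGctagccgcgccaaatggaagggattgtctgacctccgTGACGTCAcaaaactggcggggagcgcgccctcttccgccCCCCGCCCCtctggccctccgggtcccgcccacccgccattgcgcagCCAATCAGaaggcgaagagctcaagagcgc
Ogdh, chr11:6291438-6291632, plus strand: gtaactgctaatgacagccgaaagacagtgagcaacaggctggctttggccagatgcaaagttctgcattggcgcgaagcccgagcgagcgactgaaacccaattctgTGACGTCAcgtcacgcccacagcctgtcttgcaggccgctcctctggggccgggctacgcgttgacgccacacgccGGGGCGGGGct
Pdha1, chrX:160138414-160138601, minus strand: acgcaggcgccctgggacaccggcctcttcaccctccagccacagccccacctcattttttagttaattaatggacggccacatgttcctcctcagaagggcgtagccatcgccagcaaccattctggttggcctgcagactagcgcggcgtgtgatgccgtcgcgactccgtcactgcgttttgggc
Pdhb, chr14:8173026-8173210, minus strand: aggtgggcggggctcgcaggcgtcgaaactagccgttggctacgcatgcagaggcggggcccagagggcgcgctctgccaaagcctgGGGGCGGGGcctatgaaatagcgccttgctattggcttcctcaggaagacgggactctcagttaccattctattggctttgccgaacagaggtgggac
Dld, chr12:31351414-31351442, minus strand: cgtatatgttGCGCAGGCGcagggtgggg

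The Dlst stretch held 1 CpG and the Pdp1 stretch 22, over the same length. NRF-1, a factor known for driving nuclear genes of mitochondria, was searched as GCGCANGCG within 100 bp of the summit. It was present at Dld and Pdp1, 2 of the 32 genes bound by both (6.25%), against 12.6% of all 9900 promoter regions bound by both. The SP1 letters GGGGCGGGG were present at 8 of 32 genes (25%, against 12.5%), namely Pdhb, Pdk1, Pdp1, Pdp2, Ogdh, Aco1, Glud1 and Acly. The NFY letters CCAATNNG were present at 6 genes (18.8%, against 10.6%), namely Mpc1, Mpc2, Pdk3, Pdp1, Idh3b and Me2. The CRE letters TGACGTCA were present at Pdp1, Ogdh and Mdh2 (9.38%, against 2.74%), and the E-box CACGTG at Pdp2, Pcx and Slc1a5 (9.38%, against 8.53%). The ETS letters CCGGAAGT were present at 0 of 32 genes, against 7.88%. GFY (CTACAATTC, at Mdh1, 0.677% of all regions), RUNX (TGTGGTT, at Mdh2, 4.03%) and YY1 (AAGATGGCG, at Idh3g, 2.71%) matched 1 gene each. Parts of the CRE and E-box letters are shared, as are GC-rich letters of SP1 and NRF-1, but no printed match overlaps another. A match is a description of letters and does not show that a factor was bound.

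Among the genes of pyruvate entry, 11 of 13 had a region bound by both and 10 of 13 a peak in all 4 lists. Dlat, which encodes the acetyltransferase core of the pyruvate dehydrogenase complex, carried the highest mean percentile of the group. Its peak stood at percentiles 96.5 and 82.0 in CDK6-WT replicates 1 and 2 and at 94.3 and 72.0 in CDK6-K43M replicates 1 and 2, and rested on 46, 24, 50 and 18 reads at the summit. The summits lay 200 to 207 bp inside the gene in all 4 libraries. Pdk1, a kinase that inactivates the complex, followed with percentiles of 88.2 and 74.2 in CDK6-WT and 87.6 and 82.0 in CDK6-K43M. Mpc2, a subunit of the pyruvate carrier, had percentiles of 87.2 and 81.0 in CDK6-WT and 93.7 and 66.2 in CDK6-K43M. In Dlat and Mpc2 both replicate 1 values lay above both replicate 2 values, and so did those of Pdk1.

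The lowest means of the group belonged to Pdha1, Pdhb and Pdk3. Pdha1, the catalytic alpha subunit on the X chromosome, stood at percentiles 1.69 and 20.8 in CDK6-WT and 47.7 and 52.0 in CDK6-K43M, with 13, 13, 22 and 14 reads at the summit. Pdhb, its beta partner, stood at 59.0 and 25.5 in CDK6-WT and 28.6 and 21.7 in CDK6-K43M, with 22, 12, 15 and 12 reads. Pdk3, another inactivating kinase, stood at 60.6 and 25.5 in CDK6-WT and 28.6 and 36.2 in CDK6-K43M. Pdhb and Pdk3 share the percentile of CDK6-WT replicate 2 and that of CDK6-K43M replicate 1. The 95% Poisson interval of the 13 reads at Pdha1 in CDK6-WT ran from 6.92 to 22.2 and covers counting error only.

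The 4 kinases did not share one pattern. Pdk1 and Pdk3 had a peak in all 4 lists, and Pdk2 and Pdk4 had none in any list. The nearest region bound by both lay 36590 bp from a start of Pdk2 and 180786 bp from a start of Pdk4. The promoter of Pdk2 counted as CpG-rich and that of Pdk4 did not. The phosphatases that reactivate the complex also differed, since Pdp1 was present in all 4 lists and Pdp2 lacked a peak in CDK6-K43M replicate 2 and stood at 0.955 in CDK6-WT replicate 2. Mpc1, Dld and Pdhx, which encode the second carrier subunit, the dihydrolipoamide dehydrogenase and the component that holds it in the complex, had a peak in all 4 lists.

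**Figure D2:**
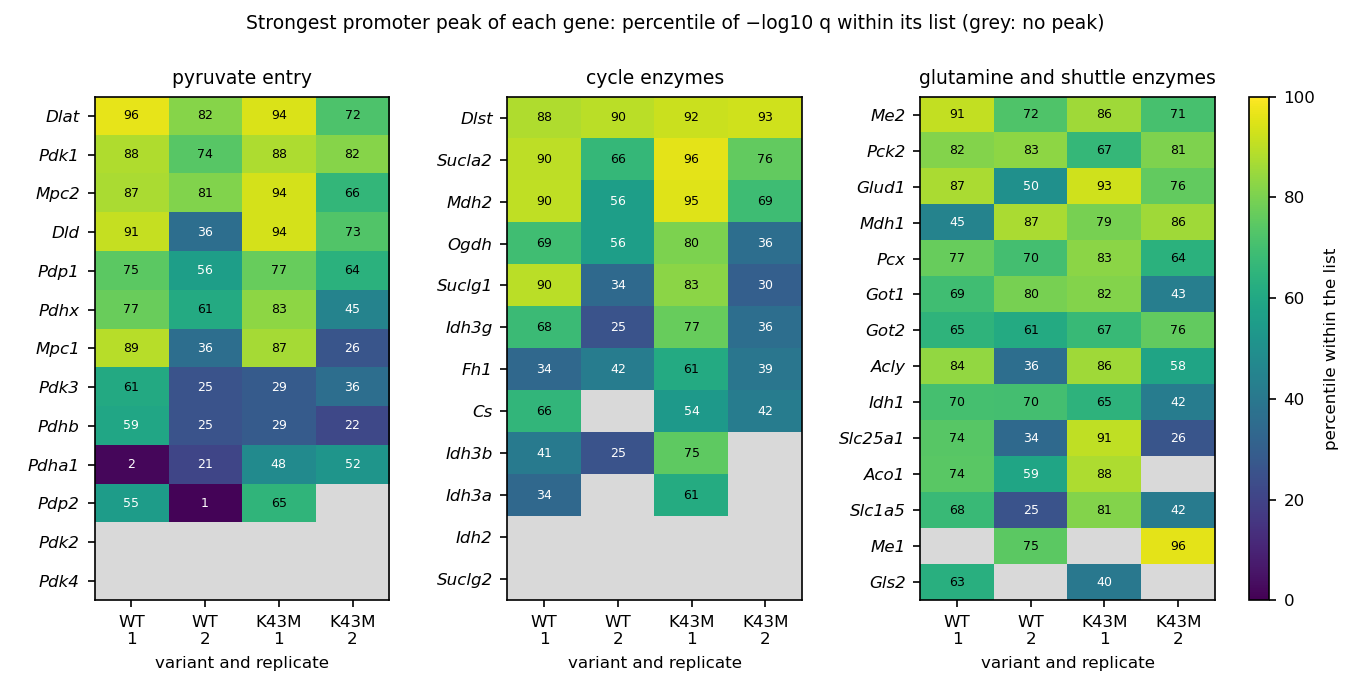
Percentile of −log10 q within the list (colour and printed whole number) of the strongest promoter peak of each of the 39 genes (rows, in 3 groups ordered by mean with absent peaks as 0) in each library (columns). Grey marks a list without a promoter peak. Pdk2, Pdk4, Idh2 and Suclg2 are grey throughout, and 28 genes have a value in all 4 columns.

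Of the cycle enzymes, 9 of 12 had a region bound by both and 7 of 12 a peak in all 4 lists. Dlst, the succinyltransferase of the 2-oxoglutarate dehydrogenase complex, had the highest mean percentile of all 39 genes, with 88.2 and 89.7 in CDK6-WT and 92.0 and 92.8 in CDK6-K43M. These values do not come from 1 place. In both replicate 1 libraries the strongest peak lay at the 5′ start (chr12:85110518-85111112, percentiles 88.2 in CDK6-WT and 92.0 in CDK6-K43M), where CDK6-WT replicate 2 had no peak and CDK6-K43M replicate 2 stood at 7.80. In both replicate 2 libraries it lay beside an internal start, with the middle of the region 19854 bp past the 5′ start (chr12:85130436-85130938, percentiles 89.7 in CDK6-WT and 92.8 in CDK6-K43M), the region whose CpG-poor sequence is printed above. That internal region was also present in replicate 1, at 83.1 in CDK6-WT and 82.5 in CDK6-K43M. Sucla2, the ATP-forming beta subunit of succinyl-CoA ligase, had percentiles of 90.2 and 66.4 in CDK6-WT and 96.1 and 75.9 in CDK6-K43M. Mdh2, mitochondrial malate dehydrogenase, had 90.3 and 56.1 in CDK6-WT and 95.1 and 68.9 in CDK6-K43M, on 49, 17, 75 and 17 reads.

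The weakest cycle promoters with a peak in all 4 lists were those of Fh1, Idh3g and Suclg1. Fh1, fumarase, stood at 33.7 and 41.9 in CDK6-WT and 61.1 and 39.1 in CDK6-K43M. Idh3g, a regulatory subunit of the NAD-dependent isocitrate dehydrogenase, stood at 68.2 and 25.5 in CDK6-WT and 76.7 and 36.2 in CDK6-K43M. Suclg1, the alpha subunit of succinyl-CoA ligase, stood at 89.6 and 34.0 in CDK6-WT and 82.7 and 30.4 in CDK6-K43M. In Idh3g and Suclg1 both replicate 1 libraries were above both replicate 2 libraries, and in Fh1 the values overlapped.

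The genes of the isocitrate step differed in the lists that held them, and differences in strength between them were not tested. Idh3a, the catalytic subunit, had a peak at 33.7 in CDK6-WT replicate 1 and 61.4 in CDK6-K43M replicate 1, on 22 and 35 reads, and none in either replicate 2 list. Idh3b, the beta subunit, lacked a peak in CDK6-K43M replicate 2 alone. Idh2, the NADP-dependent mitochondrial enzyme, had no promoter peak in any list, although its promoter counted as CpG-rich and a region bound by both lay 4118 bp from a start. Suclg2, the GTP-forming partner of Suclg1, had no promoter peak in any list, and the nearest region bound by both was 526254 bp away. Cs, citrate synthase, had a peak in 3 lists and none in CDK6-WT replicate 2. Ogdh, the first component of the 2-oxoglutarate dehydrogenase complex, had a peak in all 4 lists.

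Of the glutamine and shuttle genes, 12 of 14 had a region bound by both and 11 of 14 a peak in all 4 lists. Me2, mitochondrial malic enzyme, had percentiles of 90.7 and 72.4 in CDK6-WT and 85.7 and 71.0 in CDK6-K43M. Pck2, the mitochondrial phosphoenolpyruvate carboxykinase, had 81.5 and 83.0 in CDK6-WT and 66.6 and 80.6 in CDK6-K43M. Glud1, glutamate dehydrogenase, had 87.2 and 50.1 in CDK6-WT and 92.8 and 75.9 in CDK6-K43M. These 3 genes had the highest means of the group (80.0, 77.9 and 76.5), and Pck2 was the one in which the replicate numbers were mixed.

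The lowest means of the group belonged to Slc1a5, Slc25a1 and Idh1. Slc1a5, a plasma membrane glutamine transporter, stood at 67.6 and 25.5 in CDK6-WT and 81.3 and 41.5 in CDK6-K43M, over 6 separate regions at its annotated starts. Slc25a1, the mitochondrial citrate carrier, stood at 74.0 and 34.0 in CDK6-WT and 90.6 and 26.4 in CDK6-K43M. Idh1, the cytosolic NADP-dependent isocitrate dehydrogenase, stood at 70.4 and 70.2 in CDK6-WT and 64.6 and 41.9 in CDK6-K43M. In Slc1a5 and Slc25a1 the replicate 1 values lay above the replicate 2 values, and in Idh1 they did not separate.

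Gls2, a glutaminase, had a peak at 63.1 in CDK6-WT replicate 1 and 39.9 in CDK6-K43M replicate 1, on 21 and 18 reads, and none in replicate 2. Me1, cytosolic malic enzyme, had the reverse pattern, with 74.7 in CDK6-WT replicate 2 and 95.8 in CDK6-K43M replicate 2, on 23 and 47 reads, and none in replicate 1. The Me1 peaks lay beside an internal start, in a region whose middle is 77837 bp past the 5′ start (chr9:86617393-86618840). That region also held a CDK6-WT replicate 2 peak at percentile 96.5 outside the promoter window. Aco1, cytosolic aconitase, had a promoter peak in 3 lists, and the peak of CDK6-K43M replicate 2 (percentile 33.6) fell in the same merged region but outside the promoter window. Acly, Got1, Got2, Mdh1 and Pcx, which split citrate, move amino groups, interconvert malate and oxaloacetate and carboxylate pyruvate, had a peak in all 4 lists.

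Within several enzyme pairs one gene was listed more often than the other. Idh1 had peaks in all 4 lists and Idh2 in none, Sucla2 in all 4 and Suclg2 in none, and Me2 in all 4 and Me1 in 2. Both malate dehydrogenase genes (Mdh1 and Mdh2) and both aspartate aminotransferase genes (Got1 and Got2) had peaks in all 4 lists. Of the 7 genes without a region bound by both, 5 had a CpG-rich promoter.

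Other genes of these pathways were counted from a separate list of 40. Of these, 27 (67.5%) had a promoter region bound by both, against 41.3% of all protein-coding genes and 70.0% of those with a CpG-rich promoter. A peak in all 4 lists was present for 23 (57.5%), against 33.2% and 57.6%. None had a variant-unique region (backgrounds 0.222% for CDK6-WT and 0.713% for CDK6-K43M). The succinate dehydrogenase genes Sdha, Sdhb, Sdhc and Sdhd were among the 27, with Sdhb at 99.1 and 76.7 in CDK6-WT and 98.4 and 83.5 in CDK6-K43M. No promoter peak was listed for Ogdhl, Ldhb, Pck1, Me3, Slc25a13, Slc25a18, Slc38a5 and Slc7a11. Pdpr, Lipt1, Gcsh and Aldh4a1 had peaks in both replicate 1 lists alone (4 of 40, background 5.68%). Here too one gene of a pair could be listed without the other, as for Ldha, Pck2, Ogdh and Slc25a12 beside Ldhb, Pck1, Ogdhl and Slc25a13.

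Regions were taken by their overlap with promoter windows, so summits near a transcript start follow in part from that choice. For the strongest region of each of the 32 genes bound by both, the summit lay at a median of 92 bp from the nearest start and within 200 bp for 24 genes (75%), against 68 bp and 72.8% over all 9900 promoter regions bound by both. The median region was 827.5 bp wide, against 732 bp. At 9 genes another protein-coding gene starts within the window on the opposite strand, 42 to 234 bp away, and all 9 had a region bound by both. Among these pairs are Mpc2 with Dcaf6, Pdhx with Apip, Idh3g with Ssr4, Dlst with Prox2, Mdh2 with Styxl1, Idh1 with Pikfyve, Mdh1 with Wdpcp and Glud1 with Shld2. A peak in a region that reaches both promoters cannot be assigned to 1 gene of the pair. The strongest regions of Dlst and Idh1 lay beside internal starts and reached no promoter of another protein-coding gene. Of the other 30 genes, 23 had a region bound by both. The share among all protein-coding genes with such a neighbour was not counted, so the 9 are not read as a trait of these pathways.

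**Figure D3:**
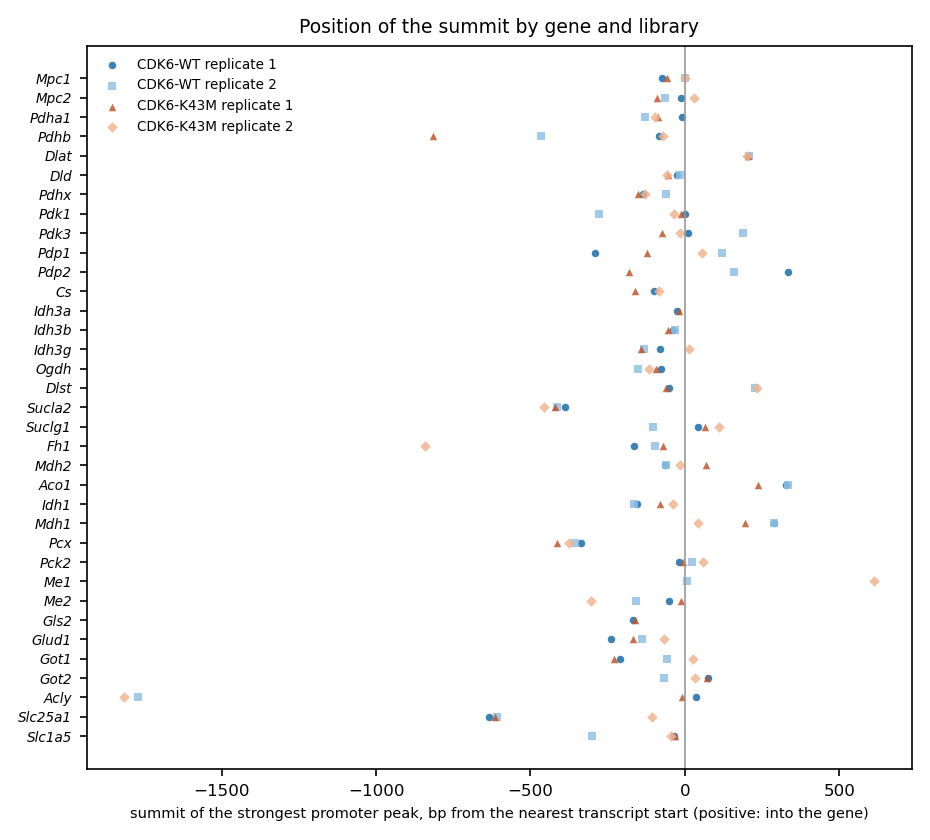
Distance of the summit of the strongest promoter peak from the nearest annotated transcript start (bp, x axis, positive into the gene) for each gene with a promoter peak (rows), 1 symbol per library. Dlat holds 4 symbols between 200 and 207 bp, and the replicate 2 symbols of Acly lie far upstream of a start.

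The variants were then compared by strength over the 28 genes with a peak in all 4 lists. The median percentile was 76.8 and 56.1 in CDK6-WT and 82.7 and 61.2 in CDK6-K43M, beside 84.3, 63.4, 86.1 and 62.8 for all protein-coding genes with a peak in all 4 lists. CDK6-K43M exceeded CDK6-WT by 5.47 percentile points (means of 71.9 and 66.4), by 5.88 within replicate 1 and by 5.07 within replicate 2. The difference was smaller than the mean SD of the 2 libraries of a variant, 14.9 points. That SD includes the gap between replicate numbers, which both variants share. It therefore does not measure the error of the differences within a replicate number. Leaving out 1 library sets unequal replicate numbers against each other, and the difference then was -6.12 without CDK6-WT replicate 2, -5.28 without CDK6-K43M replicate 1, 15.8 without CDK6-WT replicate 1 and 17.1 without CDK6-K43M replicate 2. The replicate 1 median was above the replicate 2 median in both variants.

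Single genes separated by replicate number far more often than by variant, here and over all protein-coding genes compared. Both replicate 1 libraries were above both replicate 2 libraries at 19 of the 28 genes (background 69.4%) and below them at 1 gene, Mdh1 (background 10.1%). Both CDK6-K43M libraries were above both CDK6-WT libraries at Pdha1, Dlst and Got2 (3 of 28, background 6.76%), and below them at Idh1 and Pck2 (2 of 28, background 3.61%). At Dlst and Idh1 this compares peaks in different regions. With 1 region held fixed the separation was lost at Dlst, with percentiles of 83.1 and 89.7 in CDK6-WT and 82.5 and 92.8 in CDK6-K43M. At Idh1 it depended on which region was used. A downward separation was gained at Pdhb, with 59.0 and 25.5 in CDK6-WT and 24.5 and 21.7 in CDK6-K43M. Acly gained an upward separation only with peaks of the promoter window alone. There the fixed region was an internal one (chr11:100500554-100501037) in place of the 5′ region. The counts with the region fixed were 2 above and 2 below over all its peaks. With peaks of the promoter window alone they were 3 and 3. Within both replicate numbers CDK6-K43M was higher at 11 genes (background 29.1%) and lower at 7 (background 21.8%). With 2 libraries against 2 an exact two-sided permutation test cannot give a p below 0.33.

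**Figure D4:**
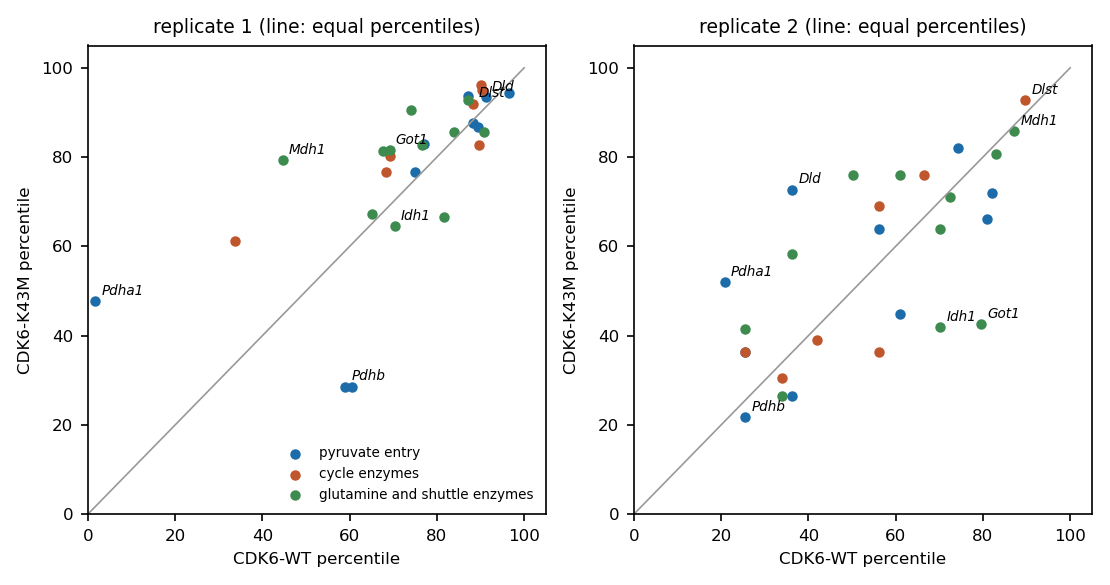
Percentile of the strongest promoter peak in CDK6-K43M (y axis) against CDK6-WT (x axis) for the 28 genes with a peak in all 4 lists, within replicate 1 (left) and within replicate 2 (right). Each point is a gene, coloured by group, and the line marks equal percentiles. Pdha1 lies above the line in both panels, Pdhb and Idh1 lie below it in both, and Got1 and Mdh1 change sides.

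The largest differences with 1 sign in both replicate numbers were upward at Pdha1, Dld and Glud1 and downward at Pdhb, Idh1 and Pck2. Pdha1 was higher in CDK6-K43M by 38.6 points (46.0 within replicate 1 and 31.2 within replicate 2). Dld was higher by 19.4 points, of which 2.34 were seen within replicate 1 and 36.4 within replicate 2, from percentiles of 91.2 and 36.3 in CDK6-WT and 93.5 and 72.7 in CDK6-K43M. Glud1 was higher by 15.7 points (5.59 and 25.8). The summit of Dld held 45 and 14 reads in CDK6-WT and 58 and 18 in CDK6-K43M. That of Glud1 held 32 and 16 reads in CDK6-WT and 46 and 19 in CDK6-K43M. At Pdha1 the replicate 2 counts were 13 in CDK6-WT and 14 in CDK6-K43M. Large gaps in percentile within replicate 2 thus rested on small gaps in reads. For Pdhb the percentile fell by 17.2 points (it fell by 30.5 within replicate 1 and fell by 3.81 within replicate 2). For Pck2 it fell by 8.62 points, and for Idh1 by 17.0 points. At Idh1 the strongest peak lay at the 5′ start in CDK6-WT and at an internal start in CDK6-K43M, so the value compares 2 places. In the 5′ region (chr1:65186516-65187064) the percentiles were 70.4 and 70.2 in CDK6-WT and 63.4 and 16.2 in CDK6-K43M, whereas in the internal region (chr1:65178151-65179537) they were 63.1 and 39.8 in CDK6-WT and 83.6 and 41.9 in CDK6-K43M. The 83.6 belongs to a peak of that region outside the promoter window, and within the window CDK6-K43M replicate 1 stood at 64.6. The strongest peak lay in 1 and the same region in all 4 lists at 22 of the 28 genes, the exceptions being Pdhb, Pdp1, Dlst, Idh1, Acly and Slc1a5.

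None of these differences passed a test across genes. Fold enrichment of the strongest promoter peak was compared on the log2 scale with limma over 7311 protein-coding genes with a peak in all 4 lists, and 0 genes passed an adjusted p of 0.05 (background 0%), none of the 28 among them. At an unadjusted p under 0.05 stood 14 genes, 11 higher and 3 lower in CDK6-K43M, and none of the 28. The differences of the 28 genes ran from -0.30 at Pck2 to 0.61 at Pdha1, with a median of 0.06 beside 0.02 over all genes tested, and 16 were above 0 and 12 below. Their standard errors ran from 0.31 to 0.64, and the difference exceeded its standard error at 4 genes (Pdha1, Slc25a1, Glud1 and Dld). Pdha1 was higher in CDK6-K43M by 0.61 ± 0.56 (SE) on the log2 fold enrichment scale, with a limma adjusted p of 0.9999 that all 28 genes shared. With the replicate number added to the fit as a block, the SE at Pdha1 was 0.29 and its limma adjusted p 0.909. The intervals that these standard errors leave are wide, and the data do not show that the variants bind these promoters alike.

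**Figure D5:**
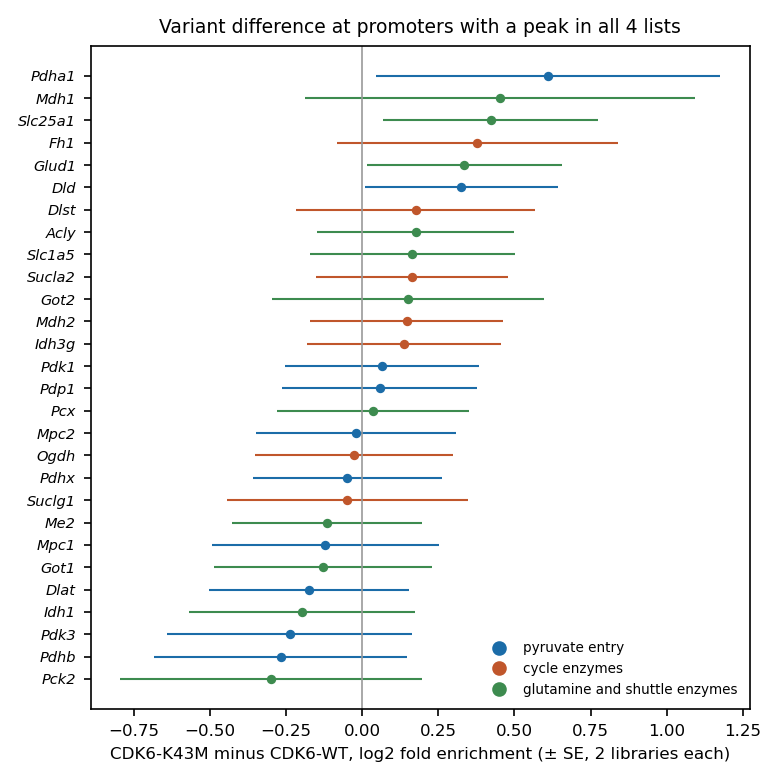
Difference in log2 fold enrichment of the strongest promoter peak, CDK6-K43M minus CDK6-WT, after centring each library on its median (x axis), for the 28 genes with a peak in all 4 lists (rows). Points are limma estimates and bars are ± 1 SE from 2 libraries per variant. Pdha1 lies furthest to the right at 0.61 and Pck2 furthest to the left at -0.30, and the bars of 24 of the 28 genes cross 0.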

How the data were processed

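Anti-HA ChIP-seq peak lists of 4 libraries (2 of CDK6-WT, 2 of CDK6-K43M) were grouped by their titles. As the study and the submitters' processing notes describe, the authors trimmed reads (Trimmomatic 0.36), aligned them to mm10 (BWA 0.7.15), removed blacklisted, multimapping and low-quality reads (bedtools, SAMtools 1.3.1) and called peaks per library with MACS2 2.1.0 at default settings. Each peak of the deposited lists has a fold enrichment (a ratio to the local background), a −log10 p-value, a −log10 q-value and a score, which is 10 times that q-value term cut to a whole number. The remaining deposited column is other information on where the summit lies. The lists state no read totals. The reads at each summit were solved from the deposited fold enrichment and −log10 p, and 100% of peaks in each list matched a whole number within 0.001 of the −log10 p.

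Promoters ran from 2000 bp before to 200 bp after any GENCODE M21 transcript start (the authors used M13). Peaks of the 4 lists that shared 1 bp or more were joined into regions. A region was bound by both with a peak in at least 3 lists, and unique with a peak in both libraries of a variant and neither of the other, after the definitions of the study. A promoter was CpG-rich with an observed to expected CpG ratio of at least 0.6 and at least 50% GC from 500 bp before to 200 bp after its most used start. The variants were compared with limma 3.58.1 (R 4.3.3) on log2 fold enrichment, without a pseudocount, centred per library, two-sided, with Benjamini-Hochberg adjustment over all genes tested. Merging, read recovery and the limma fit were tested on simulated data. Python 3.11.15, numpy 2.4.6, scipy 1.17.1 and pysam 0.24.0 were used.

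Members and lists were chosen with earlier results of these data known. Genes named with values were those without a region bound by both, the 3 highest and 3 lowest means per group among genes with a peak in all 4 lists, and the 3 largest variant differences in each direction with 1 sign in both replicate numbers. The values of Pdp2, Aco1 and Sdhb fall outside this rule and were chosen after they were seen. The alternatives covered lists of equal length, a −log10 q of 5 or 10 as the lowest allowed, windows of 500 bp to each side, starts of coding transcripts, summits in the window, other scales, the replicate block and leaving out each library. Some genes of the wider pathway list and of the neighbouring genes are not reported here by name.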

Additional observations from a re-analysis of the deposited data

How the results depend on the processing

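The count of 32 genes bound by both lay between 26 and 35 under every alternative but a minimum −log10 q of 10, which left 14, and between 31 and 34 when each library was left out. The count of 28 genes with a peak in all 4 lists fell to 5 at that minimum. The count of genes in both replicate 1 lists and neither replicate 2 list rose from 2 to 7 at a minimum of 5 and to 12 at a minimum of 10. The count of variant-unique genes was 1 at a minimum of 5, and 3 to 5 when a library was left out, where a single list stands for a variant: 5 without CDK6-WT replicate 1 and 3 without any one of the other libraries. A minimum on −log10 q removes peaks of few reads, and the median summit in the lists held 15 to 23 reads.

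The median percentile difference of 5.47 points between the variants ran from -6.12 to 17.1 when a library was left out (-6.12 without CDK6-WT replicate 2, -5.28 without CDK6-K43M replicate 1, 15.8 without CDK6-WT replicate 1 and 17.1 without CDK6-K43M replicate 2) and was -6.03 over the 5 genes left at a minimum of 10. Leaving out 1 library sets unequal replicate numbers against each other, and replicate 1 percentiles were the higher, so the values without a library do not bear on the sign. 3 alternatives were added after the data were seen. Holding 1 region fixed over the lists gave 2.21 points over 28 genes, with Aco1 in place of Slc1a5. There the difference at Idh1 turned to 11.3 points and that at Acly to -16.3, and CDK6-K43M was higher within both replicate numbers at 9 genes and lower at 6. With peaks of the promoter window alone, the fixed region gave 4.06 points over 27 genes, and the tally was 9 higher and 7 lower. No difference of a gene then changed sign from that of the strongest peak (Idh1 -30.4, Acly 18.4). At both genes this setting took another region than the setting before it. Idh1 moved from the internal to the 5′ region. Acly moved from the 5′ region (chr11:100526825-100528466) to an internal one (chr11:100500554-100501037), so these values compare different places. Using the 5′-most start of each gene alone left 31 genes bound by both (79.5%, against 36.8% of all protein-coding genes) and 24 with a peak in all 4 lists.

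The limma count of 0 genes past the threshold held under all 14 alternatives, with 1 to 382 genes at an unadjusted p under 0.05. The labels do not say what a replicate number marks, so the libraries share only a number, although deviations of same-numbered libraries correlated over 7311 genes (r = 0.69). With the number as a replicate block the difference stayed at 5.47 points and 0 genes passed the threshold (lowest limma adjusted p over all genes 0.0937). At an unadjusted p under 0.05 stood 382 of the 7311 genes tested. That threshold also lets through a share of genes without a difference, so the count is not read as a variant effect. Among the 382 genes was 1 of the 28, Pdha1, at 0.61 ± 0.29 (SE) with a limma adjusted p of 0.909.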
